A study of Mus musculus with 6 samples.

Results

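The 39 genes described here belong to the machinery of the cell cycle. They were listed by known role, 19 for DNA replication and its supply of nucleotides and 20 for mitosis, out of 47643 genes in the count table, and all 39 were among the 12760 genes with enough counts to be tested. Their RNA was measured in invariant natural killer T (iNKT) cells of the NKT1 subset, T cells with a nearly fixed receptor for lipids presented by CD1d, which were sorted by flow cytometry from thymi of wild-type BALB/c mice. One group was positive for the coreceptor CD4 (3 libraries) and the other was negative for it (3 libraries), with strain, genotype and tissue shared by both and no treatment named in the labels. Both were bulk sequencing libraries of polyadenylated RNA, and the labels name neither the age of the mice nor the animals behind each library.

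A dividing cell first loads the helicase ring of Mcm2 to Mcm7 onto its origins of replication with the help of Cdc6 and Cdt1, then fires the origins with Cdc45 and the GINS complex and copies DNA on the sliding clamp Pcna. Mitotic genes such as Ccnb1, Cdk1 and Plk1 are switched on later, in G2 and M phase, so RNA of the replication machinery can be held by cells that are not in division, while mitotic RNA marks cells close to it. Genes of the first kind are classic targets of the E2F factors, and genes of the second kind of the complexes that bind the CHR (cell cycle genes homology region) together with NF-Y, which binds CCAAT. Developing iNKT cells expand at an immature stage, and mature NKT1 cells are known as a population that divides little.

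Promoters of 3 pairs of members are printed to show how the sequences at the starts of these genes differ. Each is the 170 bases before the RefSeq start on GRCm38.p6, 5′ to 3′ on the strand of the gene. Mcm5 and Mcm6 come from the helicase, whose other subunits differ from them in the words counted below. Mki67 and Top2a stand for the mitotic genes with the most RNA. Kif11 and Ccnb2 stand for a mitotic motor and a mitotic cyclin. Kif11, Ccnb2 and Top2a hold a single CHR word each in the printed bases, and Ccnb2 and Top2a hold another outside them. Capitals mark E2F words, CHR words and CCAAT, read on either strand.
Mcm5 promoter, chr8:75109339-75109508, plus strand: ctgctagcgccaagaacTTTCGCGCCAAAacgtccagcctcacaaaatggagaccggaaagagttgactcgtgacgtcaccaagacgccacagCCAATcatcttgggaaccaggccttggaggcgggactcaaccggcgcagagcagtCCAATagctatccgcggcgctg
Mcm6 promoter, chr1:128359706-128359875, minus strand: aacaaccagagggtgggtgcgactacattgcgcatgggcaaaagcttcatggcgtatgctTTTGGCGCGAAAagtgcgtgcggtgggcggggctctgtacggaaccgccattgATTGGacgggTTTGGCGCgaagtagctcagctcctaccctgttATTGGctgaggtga
Mki67 promoter, chr7:135716380-135716549, minus strand: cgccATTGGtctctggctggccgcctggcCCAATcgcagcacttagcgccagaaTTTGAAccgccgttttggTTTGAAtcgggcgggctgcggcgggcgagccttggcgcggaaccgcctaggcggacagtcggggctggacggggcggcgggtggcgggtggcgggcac
Top2a promoter, chr11:99024190-99024359, minus strand: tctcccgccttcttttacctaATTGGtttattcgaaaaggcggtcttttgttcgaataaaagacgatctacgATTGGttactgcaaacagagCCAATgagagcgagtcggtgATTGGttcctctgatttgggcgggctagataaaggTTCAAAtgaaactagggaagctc
Kif11 promoter, chr19:37376212-37376381, plus strand: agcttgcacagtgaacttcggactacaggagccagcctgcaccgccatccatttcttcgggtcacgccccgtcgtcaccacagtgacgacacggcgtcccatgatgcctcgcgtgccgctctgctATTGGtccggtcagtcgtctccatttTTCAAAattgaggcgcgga
Ccnb2 promoter, chr9:70421555-70421724, minus strand: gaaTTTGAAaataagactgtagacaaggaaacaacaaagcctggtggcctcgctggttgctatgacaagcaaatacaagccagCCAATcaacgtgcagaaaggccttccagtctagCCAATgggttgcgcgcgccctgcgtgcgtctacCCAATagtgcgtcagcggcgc

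The E2F words searched were TTTGGCGC, TTTCCCGC, TTTGCCGC and TTTCGCGC, the CHR words were TTTGAA and TTTAAA, and CCAAT was searched as such, all on both strands, so that capitals such as GCGCCAAA, TTCAAA and ATTGG are the same words read from the other strand. Of the printed stretches, Mcm5 held 2 E2F words and Mcm6 held 3, in each case with 2 of them overlapping in a single run of capitals. The other printed genes held no E2F word in these bases and had at least 1 CHR word, and CCAAT stood in all 6. Over windows of 300 bases (250 before the start and 50 after it), RefSeq entries were matched for 16 of 19 replication genes (18 windows, since Mcm7 and Fen1 have a pair each) and 17 of 20 mitotic genes (17 windows). An E2F word stood in 6 of 18 replication windows (33.3%; those of Cdc6, Cdt1, Mcm3, Mcm5, Mcm6 and Mcm7) and in 1 of 17 mitotic windows (5.88%; Cdk1), against 2.26% of 32851 promoters of that length. Of the helicase genes, Mcm2 and the other window of Mcm7 held no E2F word, and Mcm4 had no matched entry. A CHR word stood in 7 replication windows (38.9%) and 15 mitotic windows (88.2%; all but Bub1 and Nusap1), against 27.6% of all promoters. CCAAT was in 11 replication windows (61.1%) and 15 mitotic windows (88.2%), against 37.4% of all. A CHR word and CCAAT together were held by 4 replication windows (22.2%; Cdc45, Mcm2, Mcm5 and Rrm2) and 14 mitotic windows (82.4%), against 10.7% of all promoters. The CHR word of Mcm5, at -221, lies before its printed bases. In the 250 bases before the start alone, E2F words were in 4 replication windows (22.2%; Cdt1 and Mcm3 had theirs after the start) and 1.86% of all promoters, CHR words in 11 mitotic windows (64.7%) and 25.2% of all, and a CHR word with CCAAT in 10 mitotic windows (58.8%) and 8.78% of all. A match describes the letters in the window, not a site in use.

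**Figure D1:**
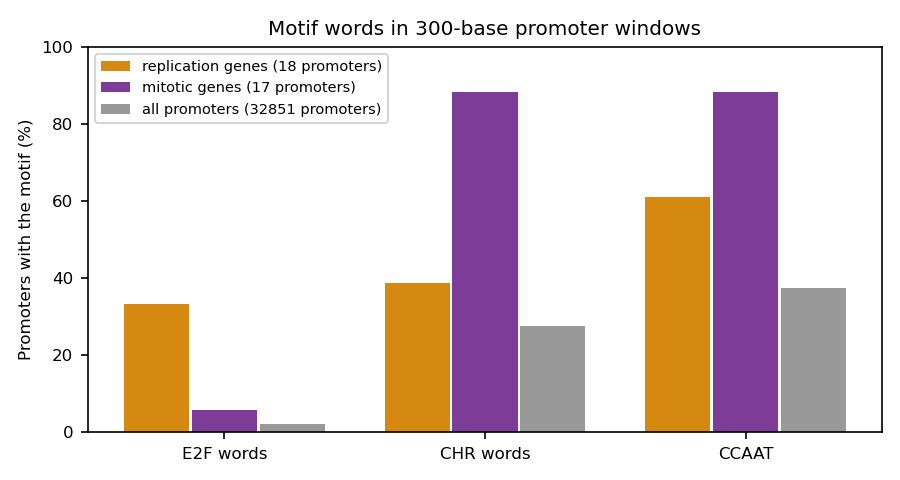
Share of promoter windows (vertical axis, percent) that hold an E2F word, a CHR word or CCAAT, for replication genes, mitotic genes and all promoters of the table. E2F words were in 33.3% of replication and 5.88% of mitotic windows, and CHR words in 38.9% and 88.2%.

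The libraries held 40480468 to 53145898 estimated counts, so that 1 count was worth 0.0185 to 0.0261 CPM (counts per 1000000 of the TMM-adjusted library total). Cd4 itself stood at 508, 401 and 449.9 CPM in CD4-positive replicates 1, 2 and 3 and at 15.99, 10.9 and 41.2 CPM in the CD4-negative ones, the order that the labels give. All 10 markers of NKT1 cells had a mean of at least 1 CPM, with Tbx21 and Zbtb16 among them, and their summed level overlapped between the groups (4267 to 5484 CPM in CD4-positive against 4253 to 4929 CPM in CD4-negative libraries). CD4-negative replicate 3 stood apart, with a score of -90.2 on the first principal component (46.3% of the variance) where the others lay between -2.31 and 32.2, and with counts for 13804 genes against 15320 to 16319. Mitochondrial transcripts made up 1.33% of the counts of this library and 1.35% of those of CD4-positive replicate 1, against 3.51% to 5.19% elsewhere. The part of this in the differences described here was not tested. Replicate 3 of each group also has a library name of another form ("R4" in place of a plain number), and what that marks is not given in the sources used here. Markers of NK and innate lymphoid cells (5 listed) summed to 72.4 to 91.5 CPM in CD4-positive against 184 to 193 CPM in CD4-negative libraries. Of the 4 that were tested, 3 had less RNA in CD4-positive cells and 1 had more. Markers of myeloid and stromal cells (10 listed) summed to 33.7 to 36.8 CPM and 19.3 to 20.6 CPM, most of it Pecam1, which T cells can express too. Without Pecam1 they summed to 3.01 to 3.43 CPM in CD4-positive libraries and to 3.65 to 4.26 CPM in CD4-negative ones. Markers of NKT2 and NKT17 cells (9 listed) summed to at most 7.47 CPM, and those of B and plasma cells (6 listed) to at most 0.818 CPM, with Pax5 at 0 in every library. The part of other cell types in the differences described here was not tested, and in bulk RNA fewer cells in cycle and less of these RNAs per cell cannot be told apart.

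Across the 6 libraries, RNA of the replication machinery was much more abundant than mitotic RNA once gene length was allowed for. The median of the mean levels per kilobase of annotated exons was 8.03 CPM per kb over the 19 replication genes and 1.496 CPM per kb over the 20 mitotic genes, against 4.77 CPM per kb over all tested genes. Pcna, the sliding clamp, was highest at 89.1 CPM per kb, and the 6 helicase subunits followed at 20.7 to 36.1 CPM per kb, with Mcm4 (36.1) and Mcm5 (34.7) at the top. The licensing factor Cdt1 (16.2 CPM per kb) and the flap endonuclease Fen1 (15.9 CPM per kb) came next, while the lowest replication gene was the initiation factor Mcm10 at 0.499 CPM per kb. Among mitotic genes the highest were Top2a, the topoisomerase that untangles sister DNA (3.98 CPM per kb), Cdc20, an activator of the anaphase-promoting complex (3.79 CPM per kb), and Mki67, which coats mitotic chromosomes (3.46 CPM per kb). The kinetochore protein gene Cenpf was lowest at 0.244 CPM per kb. The lengths count every annotated isoform, so a gene with long minor isoforms reads low on this scale.

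**Figure D2:**
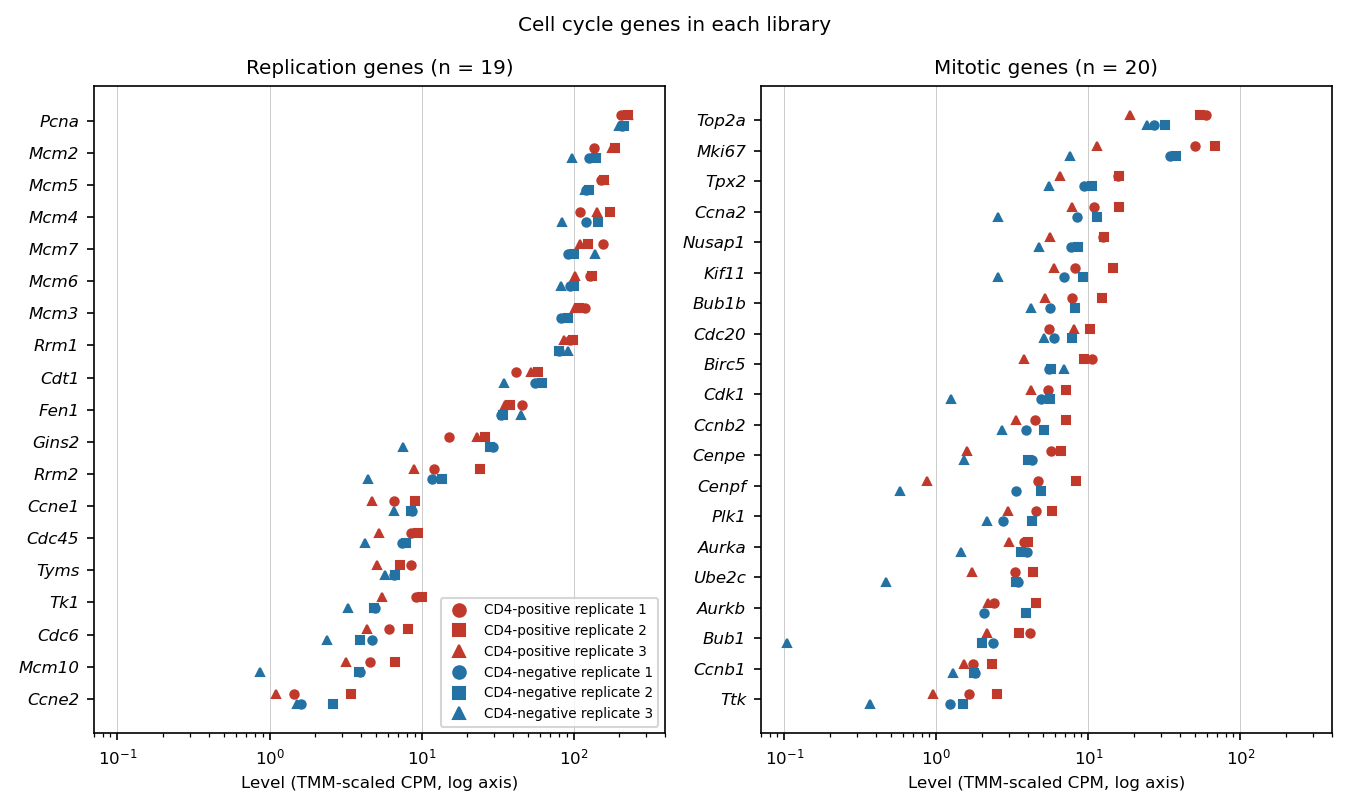
Level of each gene in each library (horizontal log axis, TMM-scaled CPM), replication genes on the left and mitotic genes on the right, ordered by mean level. Red symbols are CD4-positive and blue symbols CD4-negative libraries, with a triangle for replicate 3; Aurkb in CD4-negative replicate 3 was at 0 and is not drawn.

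The question put to the members was whether their RNA differed between CD4-positive and CD4-negative NKT1 cells. In the edgeR quasi-likelihood fit over all 12760 tested genes, none of the 39 members passed an adjusted p of 0.05, where 27 genes (0.212%) did, 0.0705% with more RNA in CD4-positive cells. The smallest adjusted p among them was 0.727, for Tk1. In simulated counts the same fit recovered 21% of 2-fold changes, so a missing call does not show equal levels. Without adjustment 2 members had a p under 0.05, Tk1 and Mcm5, both with more RNA in CD4-positive cells (2.12% of all tested genes had a p under 0.05 in that direction), and DESeq2 called none of the members either, where it called 189 genes (1.48%). In DESeq2 6 members had an unadjusted p under 0.05, as did 683 of all tested genes (5.35%). The estimates were mostly on 1 side. The log2 difference, CD4-positive minus CD4-negative, was above 0 for 17 of 19 replication genes and 20 of 20 mitotic genes, against 48.9% of all tested genes, with medians of 0.24 and 0.54 against -0.01 over all tested genes. Genes of a shared programme can move together from library to library, so these counts are not counts of independent observations. The libraries of the groups did not overlap, with CD4-positive higher, for 4 replication genes (Mcm3, Mcm5, Mcm6 and Tk1) and for no mitotic gene, where 4.85% of all tested genes had groups apart in that direction and 9.43% in either.

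**Figure D3:**
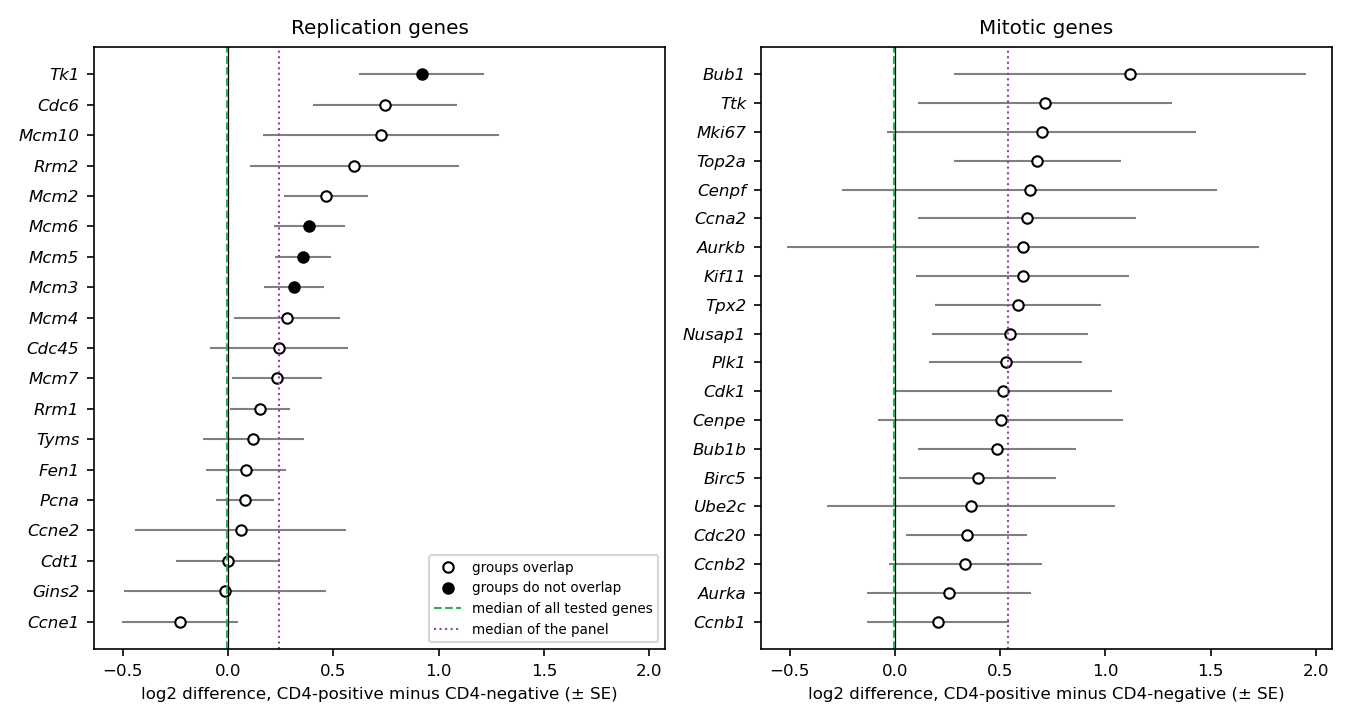
Log2 difference of each gene (horizontal axis, CD4-positive minus CD4-negative, point ± SE from the edgeR fit), replication genes on the left and mitotic genes on the right. Filled points are the 4 genes whose groups did not overlap, the dotted line is the median of the panel (0.24 and 0.54) and the dashed line that of all tested genes (-0.01).

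Of the 6 helicase subunits, 3 had groups that did not overlap: Mcm5 (chr8:75109569-75128439, plus strand, GRCm38), Mcm3 (chr1:20802968-20820312, minus strand) and Mcm6 (chr1:128331590-128359664, minus strand). Mcm5 stood at 151, 158 and 158 CPM in CD4-positive replicates 1, 2 and 3 and at 119.8, 127 and 118 CPM in CD4-negative replicates 1, 2 and 3. Every CD4-positive library lay above every CD4-negative one, and the libraries of a group were within 1.07-fold of each other. The log2 difference of Mcm5 was 0.36 (SE 0.13; adjusted p = 0.917, edgeR). Mcm3 stood at 118, 109 and 103 CPM against 83.2, 92.2 and 89.6 CPM, and Mcm6 at 128, 133 and 103 CPM against 94.8, 101 and 82.4 CPM. In both the groups did not overlap, but for Mcm6 the lowest CD4-positive library, replicate 3, was close to the highest CD4-negative one, replicate 2. Their log2 differences were 0.31 (SE 0.14) for Mcm3 and 0.39 (SE 0.17) for Mcm6.

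Mcm2, the subunit often used as a marker of licensed cells, was at 136, 187 and 178 CPM in CD4-positive against 126, 139.6 and 97.5 CPM in CD4-negative libraries. CD4-positive replicate 1 lay just below CD4-negative replicate 2, so the groups overlapped, and the log2 difference was 0.46 (SE 0.20). Mcm4 was at 111, 173 and 142 CPM against 121, 145 and 84.2 CPM, with CD4-positive replicate 1 below 2 of the 3 CD4-negative libraries (log2 difference 0.28, SE 0.25). Mcm7 had its lowest levels in CD4-negative replicates 1 and 2 (92.4 and 100.5 CPM), but CD4-negative replicate 3, at 139 CPM, exceeded CD4-positive replicates 2 and 3 (125 and 110.0 CPM; log2 difference 0.23, SE 0.22). Summed over the 6 subunits, the level was 798, 885 and 793 CPM in CD4-positive against 637, 705 and 611 CPM in CD4-negative libraries. The groups did not overlap in this sum, which averaged 825 ± 51.8 CPM against 651 ± 48.4 CPM (SD, n = 3 each), 1.27-fold. The other 13 replication genes summed to 483 ± 37.2 CPM and 445 ± 34.5 CPM (SD, n = 3 each), 1.08-fold, and their groups overlapped. This split of the replication genes was not among the planned sums. The helicase sum takes in Mcm3, Mcm5 and Mcm6, whose groups lay apart, and sums over other sets of genes were not made for comparison.

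Pcna and the licensing factors gave smaller or less even differences. Pcna was at 206, 227 and 226 CPM in CD4-positive against 209.6, 215 and 199 CPM in CD4-negative libraries. Its groups overlapped and the log2 difference was 0.08 (SE 0.14). Cdt1, which loads the helicase, had a log2 difference of 0.00 (SE 0.25), with levels of 34.7 to 62.0 CPM in CD4-negative libraries around the CD4-positive range of 42.0 to 58.0 CPM. Cdc6, its partner in loading, had a log2 difference of 0.75 (SE 0.34), from 4.38 to 8.17 CPM in CD4-positive against 2.40 to 4.73 CPM in CD4-negative libraries. In the latter only CD4-negative replicate 1 reached into the CD4-positive range. The initiation factors Mcm10 and Cdc45 had log2 differences of 0.73 (SE 0.56) and 0.24 (SE 0.33). Gins2, a GINS subunit, was at -0.01 (SE 0.48), but its exons share 67.3% of their length with the opposite-strand gene Gse1, and the strand setting of the counting is not given in the sources used here.

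Of the nucleotide enzymes, Tk1 (chr11:117815526-117826092, minus strand), the thymidine kinase of the salvage route, had the largest estimate. It was at 9.17, 10.03 and 5.53 CPM in CD4-positive against 4.91, 4.89 and 3.26 CPM in CD4-negative libraries. The groups did not overlap, although CD4-positive replicate 3 was close to the CD4-negative libraries, and replicate 3 was the lowest of its group on both sides. The mean was 8.24 ± 2.39 CPM against 4.35 ± 0.943 CPM (SD, n = 3 each), a log2 difference of 0.92 (SE 0.30; adjusted p = 0.727, edgeR). Rrm2, the regulated subunit of ribonucleotide reductase, was at 12.1, 24.4 and 8.89 CPM against 11.7, 13.7 and 4.44 CPM. CD4-positive replicate 2 was far above the rest and CD4-negative replicate 3 far below, and the groups overlapped (log2 difference 0.60, SE 0.50). Rrm1, the large subunit, ranged from 79.9 to 98.4 CPM over all 6 libraries (log2 difference 0.15, SE 0.14). Tyms, which makes thymidylate, had a log2 difference of 0.12 (SE 0.24) and Fen1 one of 0.09 (SE 0.19), and 78.8% of the annotated exon length of Fen1 is shared with an opposite-strand predicted gene. The E-type cyclins, which drive entry into S phase, gave no higher level beyond their error: Ccne1 had a log2 difference of -0.23 (SE 0.28) and Ccne2 one of 0.06 (SE 0.50).

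Mitotic genes had the larger estimates and the larger spread, and Mki67 (chr7:135689784-135716361, minus strand) and Top2a (chr11:98992943-99024189, minus strand) had the most RNA among them. Mki67 stood at 50.3, 67.7 and 11.3 CPM in CD4-positive replicates 1, 2 and 3 and at 34.6, 37.5 and 7.57 CPM in the CD4-negative ones. In both groups replicate 3 was several times lower than the other two, and CD4-positive replicate 3 lay below CD4-negative replicates 1 and 2. The log2 difference was 0.70 with an SE of 0.73. Top2a was at 59.3, 54.4 and 18.9 CPM against 26.96, 31.8 and 24.2 CPM, so that CD4-positive replicate 3 was the lowest library of all 6 while replicates 1 and 2 were the highest (log2 difference 0.68, SE 0.40). Top2a had the smallest p of the 20 mitotic genes. The spindle assembly factor gene Tpx2 was at 15.7, 15.9 and 6.54 CPM against 9.36, 10.5 and 5.48 CPM, and the microtubule-bundling protein gene Nusap1 at 12.4, 12.7 and 5.61 CPM against 7.73, 8.61 and 4.70 CPM. Both had replicate 3 lowest in each group, as Mki67 did, with CD4-positive replicate 3 among the CD4-negative values (log2 differences 0.58 and 0.55, SE 0.39 and 0.37).

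The engine of mitotic entry was at low levels. Cdk1, the mitotic kinase, was at 5.45, 7.15 and 4.16 CPM in CD4-positive against 4.91, 5.55 and 1.25 CPM in CD4-negative libraries. Ccnb1, its cyclin partner, was at 1.75, 2.31 and 1.52 CPM against 1.79, 1.78 and 1.28 CPM. The groups overlapped in both, with log2 differences of 0.51 (SE 0.52) and 0.20 (SE 0.34). Ccnb1 was the mitotic gene with the smallest difference, and the cyclins Ccnb2 and Ccna2 had log2 differences of 0.33 (SE 0.36) and 0.63 (SE 0.52). Cdc20, which triggers anaphase, was at 5.51, 10.2 and 8.04 CPM against 5.90, 7.75 and 5.09 CPM (log2 difference 0.34, SE 0.29). It was the only mitotic gene whose lowest CD4-positive library was not replicate 3 (32.0% of all tested genes had it there). Its partner in that step, the ubiquitin-conjugating enzyme Ube2c, had a log2 difference of 0.36 (SE 0.68), with 22.8% of its exon length shared with the opposite-strand gene Tnnc2.

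Among genes of the chromosomes and the checkpoint, CD4-negative replicate 3 lay far below the others for Aurkb and Bub1. Birc5 (survivin), of the chromosomal passenger complex, was at 10.6, 9.33 and 3.80 CPM in CD4-positive against 5.53, 5.64 and 6.86 CPM in CD4-negative libraries (log2 difference 0.39, SE 0.37). It was the only mitotic gene that did not have its lowest CD4-negative level in replicate 3 (47.6% of all tested genes had it there). Its kinase partner Aurkb had 0 counts in CD4-negative replicate 3, which allows up to 0.0783 CPM by counting error, and 2.04 to 4.49 CPM elsewhere (log2 difference 0.61, SE 1.12, which depends on how the zero is handled). Bub1, a spindle checkpoint kinase, was at 0.104 CPM in that library (4 counts) and at 1.999 to 4.11 CPM in the others, and had the largest estimate of the members at 1.12 with an SE of 0.84. The checkpoint kinases Bub1b and Ttk had log2 differences of 0.49 (SE 0.37) and 0.71 (SE 0.60). The entry kinases Plk1 and Aurka stood at 0.53 (SE 0.36) and 0.26 (SE 0.39), the spindle motor Kif11 at 0.61 (SE 0.51), and the kinetochore genes Cenpe and Cenpf at 0.50 (SE 0.58) and 0.64 (SE 0.89).

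Summed per library, replication and mitotic genes differed in how the groups lay. The replication genes summed to 1258, 1411 and 1255 CPM in CD4-positive replicates 1, 2 and 3 and to 1095, 1177 and 1017 CPM in the CD4-negative ones. The groups did not overlap, with means of 1308 ± 89.0 CPM and 1096 ± 79.7 CPM (SD, n = 3 each), a 1.19-fold ratio. The mitotic genes summed to 222, 269 and 97.5 CPM against 145, 170.5 and 75.0 CPM, with means of 196 ± 88.6 CPM and 130.2 ± 49.4 CPM (SD, n = 3 each), a 1.51-fold ratio. Here CD4-positive replicate 3 lay below CD4-negative replicates 1 and 2, and the difference between the means was smaller than the SD of the CD4-positive group. The mitotic sum was 17.7%, 19.1% and 7.77% of the replication sum in CD4-positive libraries and 13.2%, 14.5% and 7.38% in CD4-negative libraries. Mki67 and Top2a made up much of the mitotic sum, and without them it was 109.0 ± 39.9 CPM against 76.0 ± 29.7 CPM (SD, n = 3 each), 1.43-fold.

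**Figure D4:**
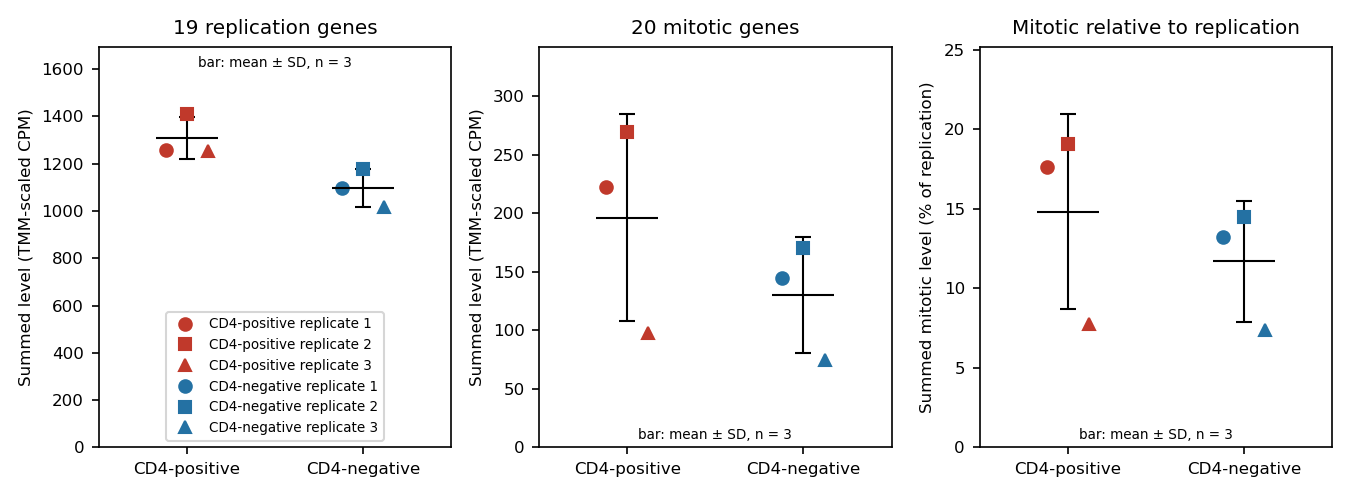
Summed level of the 19 replication genes, of the 20 mitotic genes (vertical axes, TMM-scaled CPM) and the mitotic sum as a percentage of the replication sum, for each library, with the group mean and SD (n = 3). The replication sums of the groups did not overlap, while replicate 3 (triangles) had the lowest mitotic sum in both groups, 97.5 and 75.0 CPM.

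Much of the spread of the mitotic genes lay between libraries of a group. Of 20 mitotic genes, 18 had their lowest level in replicate 3 in both groups, as did 9 of 19 replication genes and 15.7% of all tested genes. CD4-positive replicate 2 held the highest level of all 6 libraries for 17 mitotic and 13 replication genes, against 16.2% of all tested genes, and CD4-negative replicate 3 the lowest for 18 mitotic and 12 replication genes, against 31.4%. The highest CD4-positive library exceeded the lowest by a median factor of 2.31 for mitotic genes, 1.57 for replication genes and 1.46 for all tested genes. This factor was larger than the ratio of the group means for 19 mitotic genes and 14 replication genes. A highest level set over a lowest one tends to exceed a ratio of means by construction. The same count was not made over all tested genes, whose median ratio of means was 0.996, so no conclusion is drawn from the count. The range among CD4-negative libraries had a median factor of 2.76 for mitotic and 1.504 for replication genes. The lists also differ in level, with medians of 4.59 CPM for mitotic, 38.6 CPM for replication and 21.3 CPM for all tested genes. The part of level in the spread was not tested. Markers of immature thymocytes (8 listed) lay the other way: they summed to 76.3 CPM in CD4-positive replicate 3 and 69.8 CPM in CD4-negative replicate 3, and to 15.7 to 27.7 CPM in the other libraries. Rag1, of receptor gene rearrangement, was at 44.8 and 15.6 CPM in the 2 replicate 3 libraries and Ptcra at no more than 0.992 CPM in any. Their part in the result was not tested.

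**Figure D5:**
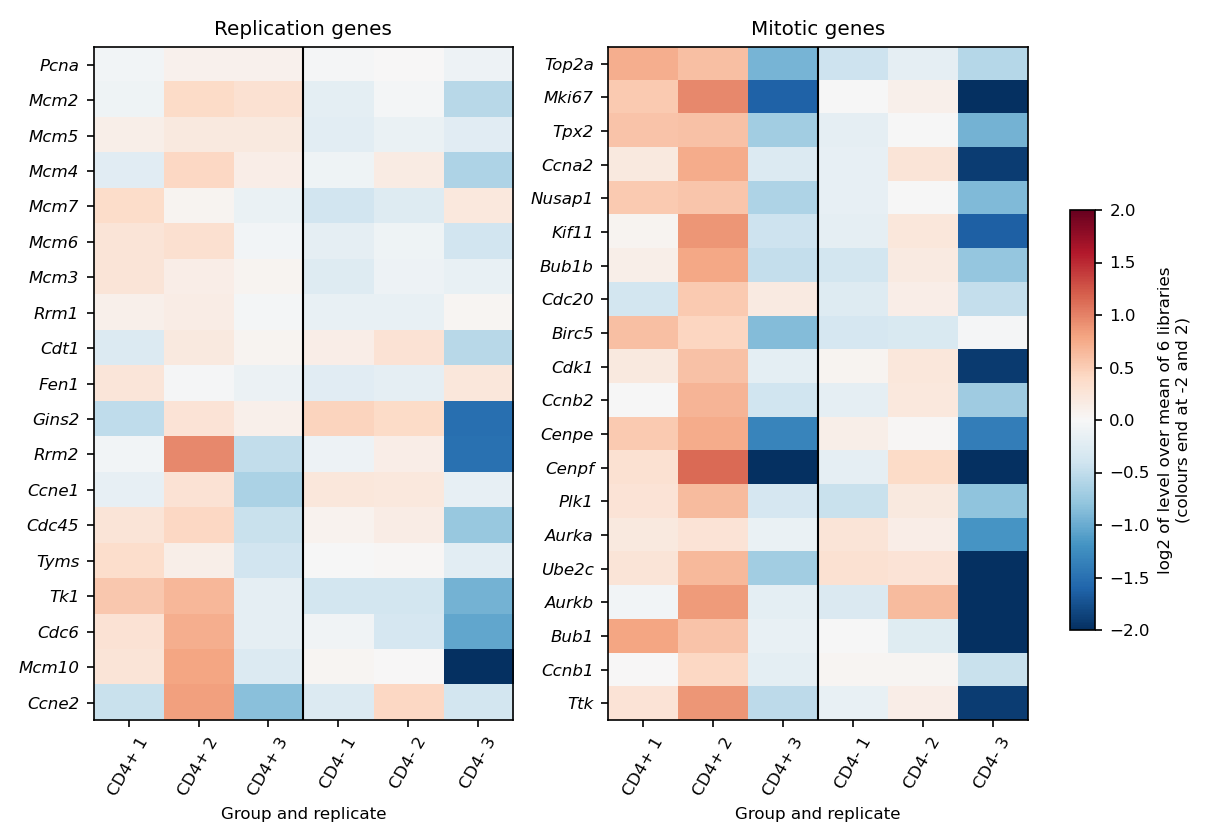
Level of each gene in each library relative to its mean over the 6 libraries (colour, log2 scale ending at -2 and 2), with genes in rows and libraries in columns. Levels under the largest value that 0 counts allow (0.0783 CPM) are drawn at that value; 18 of 20 mitotic genes had their lowest level in replicate 3 of both groups.

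The comparison was repeated within the 2 forms of library name. Between the numbered libraries (replicates 1 and 2), the mitotic sum averaged 246 ± 32.9 CPM in CD4-positive against 158 ± 18.0 CPM in CD4-negative libraries (SD, n = 2 each), a log2 ratio of 0.64. Between the replicate 3 libraries, 1 a group and so without a test, the log2 ratio was 0.38. For the replication sum the log2 ratios were 0.23 and 0.30. An edgeR fit to the numbered libraries alone, added after seeing the data, called none of the members, and 12 had an unadjusted p under 0.05, as did 6.3% of all tested genes. The share of the mitotic in the replication sum was 18.4% and 13.9% in the numbered libraries, and 7.77% and 7.38% in the replicate 3 libraries. The higher sums of CD4-positive cells were thus present within both forms, but less evenly by gene in the replicate 3 libraries. By ratio of means, 20 of 20 mitotic and 16 of 19 replication genes had a log2 ratio above 0 in the numbered libraries. Between the replicate 3 libraries, 18 of 20 and 13 of 19 had one. Over all 12760 tested genes the counts were 6403 in the numbered and 6557 in the replicate 3 libraries. Mki67 and Top2a together reached 30.2 CPM in replicate 3 of the CD4-positive group and 31.7 CPM in that of the CD4-negative group. In the numbered libraries they averaged 116 and 65.4 CPM. Of this pair, only Top2a was reversed in the replicate 3 libraries (18.9 against 24.2 CPM), while Mki67 kept the order (11.3 against 7.57 CPM). Among the other mitotic genes Birc5 was reversed there too (3.80 against 6.86 CPM). The reversed replication genes were Mcm7, Rrm1, Ccne1, Ccne2, Tyms and Fen1. Without CD4-negative replicate 3, the library that stood apart, the log2 ratio of the mitotic sums was 0.32 and that of the replication sums 0.20, and 18 of 20 mitotic and 15 of 19 replication genes had log2 differences above 0.

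Further genes of the cell cycle were read from the same fit, in which 48.9% of all tested genes had a log2 difference above 0. Of 42 further replication genes (origin recognition, polymerases, clamp loading and chromatin assembly), 29 lay above 0 (median log2 difference 0.06), and none passed the test or had an unadjusted p under 0.05 in edgeR. The 2 with the smallest p were Hells, a chromatin remodeller (29.1 ± 5.02 against 19.8 ± 5.55 CPM; log2 difference 0.56, SE 0.25), and Timeless, of the fork protection complex (27.5 ± 5.73 against 19.8 ± 3.49 CPM; log2 difference 0.47, SE 0.22; SD, n = 3 each). Of 56 further mitotic genes, 50 lay above 0 (median log2 difference 0.39), and none passed, with 3 under an unadjusted p of 0.05 (4.44% of all tested genes, in either direction). The smallest p there belonged to a gene on the other side, Cdc25b, the phosphatase that activates Cdk1. It was at 84.98, 76.3 and 66.8 CPM in CD4-positive against 101, 106 and 111 CPM in CD4-negative libraries, with no overlap (log2 difference -0.48, SE 0.15; adjusted p = 0.692, edgeR). Pbk, a mitotic kinase, was at 2.57, 2.60 and 1.72 CPM against 1.23, 1.17 and 1.15 CPM, also with no overlap (log2 difference 0.96, SE 0.33; adjusted p = 0.777, edgeR). Groups lay apart with CD4-positive higher for 5 of the 56 and lower for 1, against 4.85% and 4.58% of all tested genes. Of the 42 further replication genes, 3 and 2 lay apart in these directions. By ratio of means, 52 of the 56 and 33 of the 42 were above 0 in the numbered libraries. Between the replicate 3 libraries (1 a group) 34 and 18 were.

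Genes that start and restrain the cycle were read in the same way. Over all tested genes, 48.9% lay above 0 and 4.44% had an unadjusted p under 0.05 in either direction (edgeR). Of 21 genes of G1 phase and S-phase entry, 15 lay above 0 (median 0.11) and none passed, with 1 under an unadjusted p of 0.05. Groups lay apart for 3 of them with CD4-positive higher and for 2 with it lower, against 4.85% and 4.58% of all tested genes. E2f1, an activating E2F factor, was at 20.3, 12.6 and 10.6 CPM in CD4-positive against 8.50, 8.79 and 8.80 CPM in CD4-negative libraries. The groups did not overlap, but the CD4-positive values were spread widely (log2 difference 0.73, SE 0.26; adjusted p = 0.848, edgeR). Its dimer partner Tfdp1 was at 44.0 ± 11.03 against 31.5 ± 4.50 CPM (SD, n = 3 each; log2 difference 0.48, SE 0.23). Of 19 genes that restrain division, 8 were above 0 and 11 below (median -0.05), and none passed, with 1 under an unadjusted p of 0.05 and lower in CD4-positive cells (2.32% of all tested genes). Foxo1, a transcription factor of T cell quiescence, was at 109, 113 and 104 CPM against 156, 149 and 133 CPM, and Cdkn2d, an inhibitor of Cdk4 and Cdk6, at 26.2, 21.5 and 25.7 CPM against 31.0, 27.4 and 45.7 CPM. In both every CD4-positive library was below every CD4-negative one (log2 differences -0.43, SE 0.14, and -0.50, SE 0.23), where 4.58% of all tested genes had groups apart in that direction. Over the 19 genes 3 had groups apart and lower in CD4-positive cells and 2 apart and higher. The latter, named after their values were seen, were the inhibitor gene Cdkn2b at 1.30, 1.66 and 1.43 CPM against 0.753, 0.925 and 0.235 CPM (log2 difference 1.18, SE 0.55) and Foxo3, a relative of Foxo1 (log2 difference 0.32, SE 0.15).

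With 3 libraries a group, a permutation of the labels of a single gene cannot give a 2-sided p below 0.1. Fractional counts (further than 1e-06 from a whole number), which arise where reads are shared between genes, were present for 10 of 39 members in at least 1 library and for Pcna, Gins2 and Ccna2 in all 6, so their levels carry the uncertainty of that split.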

How the data were processed

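RNA of NKT1 cells sorted from thymus was extracted with a micro-scale column kit and sequenced in paired ends from stranded libraries of mRNA, as given in the labels' protocols. The submitters' processing notes name STAR, Picard, RSEM and mm10, with no parameters. The annotation and strand setting of the counting: not given in the sources used here. Estimated counts of 47643 genes in 6 libraries, without normalisation, were deposited in a single table, and were rounded to whole numbers before fitting. The labels do not say whether each replicate is another animal, so the p-values cover only the spread among these libraries, possibly technical in part. Libraries of a group differed from each other by a chi-square per degree of freedom of 55.6 to 400.5, far beyond sampling noise, and all 6 were kept. CD4-positive replicate 1 differed from replicates 2 and 3 by 299 and 311, against 93.1 between those. CD4-negative replicate 3 differed from replicates 1 and 2 by 306 and 400.5, against 55.6 between those.

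edgeR 4.0.16 (R 4.3.3) was fitted to the 12760 genes that filterByExpr kept, with TMM scaling, robust dispersions and the 2-sided quasi-likelihood F test of group without covariates. Benjamini-Hochberg adjustment covered all tested genes, with a threshold of 0.05. The script was tested first on simulated counts, with changes placed in genes with a mean of 5 CPM or more. The edgeR fit recovered 21% of 2-fold and 94% of 4-fold changes there, and 8 of its 123 calls were false. Levels are TMM-scaled CPM. Exon lengths and coordinates come from GENCODE M21 (GRCm38), which held all 39 members, and promoters are RefSeq windows of GRCm38.p6. Where a library had 0 counts, up to 3 counts are allowed for, which covers counting error only. Further settings were other scaling (RLE, upper quartile), DESeq2 1.42.0, limma-voom (limma 3.58.1), dropping the filter, a stricter filter (mean of 5 CPM or more), a replicate block, a batch term for the form of the library name, motif searches upstream of the start only, and leaving out single libraries. The fit on numbered libraries alone was added after seeing the data.

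The members and lists were chosen with earlier results of these data known. By rule, values in every library are given for members whose groups do not overlap, the 3 replication and 3 mitotic members with the smallest p and with the highest level per kb, and Mcm2, Pcna, Rrm2, Tk1, Mki67, Top2a, Ccnb1, Cdk1 and Birc5. The 2 genes with the smallest p are named from each other list.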

Additional observations from a re-analysis of the deposited data

How the results depend on the processing

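None of the 39 members passed an adjusted p of 0.05 in any of the 16 settings run, with 0 to 12 members under an unadjusted p of 0.05 (12 in the numbered libraries alone, where 6.3% of all tested genes were) and a smallest adjusted p of at least 0.204. The number of genes called over the whole table moved more: from 27 to 189 with DESeq2, 67 without a filter, 11 with the library name form as a batch term, 9 in the numbered libraries alone and 0 with the replicate block, and 0 to 44 when leaving out each library in turn (44 without CD4-negative replicate 3, 0 without any other). Deviations of same-numbered libraries correlated at -0.08, 0.34 and 0.036, not all above 0.1, so the numbers were not taken to pair the libraries, although replicate 3 of both groups shares a form of library name; the block changed no call of a member. With a mean of at least 5 CPM required, only 9 mitotic members were tested, and all 9 stayed above 0. The sign turned for 9 members, with estimates of up to 0.64 (Cenpf). Gins2 was at 0.0140 with upper-quartile scaling, 0.15 with limma-voom, 0.16 with the replicate block and 0.19 with the name form as a term, and Ccne2 at -0.10 with limma-voom, -0.0651 with the block and -0.0044 with the name form. Cdt1 was at -0.23 in the numbered libraries alone. When leaving out each library in turn, the lowest and highest log2 differences were -0.21 and 0.17 for Cdt1, -0.42 and 0.26 for Gins2, -0.59 and 0.36 for Ccne2, -0.0509 and 0.30 for Tyms, -0.0259 and 0.24 for Fen1, -0.0128 and 0.58 for Ccnb2, -0.0675 and 0.50 for Aurka, -0.0925 and 1.23 for Cenpf, and -0.12 and 0.69 for Ube2c, and the cause was not tested. The summed replication ratio ranged from 0.20 to 0.31 and the mitotic one from 0.30 (without CD4-positive replicate 2) to 0.92 (without CD4-positive replicate 3) on the log2 scale when leaving out each library in turn. The mitotic share of the replication sum was 3.13 percentage points higher in CD4-positive cells, with a range of 0.964 (without CD4-negative replicate 3) to 6.66 (without CD4-positive replicate 3). Depth limits Aurkb and Bub1 in CD4-negative replicate 3, with 0 and 4 counts.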
